A study of Mus musculus with 48 samples.

Results

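Piezo and transient receptor potential (TRP) channels are membrane proteins through which cells sense stretch, chemicals and calcium. The 10 channel genes described here, Piezo1, Piezo2, Trpa1, Trpm2, Trpm3, Trpm4, Trpc1, Trpc4, Trpc5 and Trpv4, were chosen by name from the 53465 genes of a raw count table of mouse enteroendocrine cells (EECs), the hormone-secreting cells of the gut lining. All 10 passed the filter on low counts, together with 15126 genes in all. Levels were followed across 3 tissues and 3 surgical conditions.

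The study sequenced RNA of EECs purified from mice that had undergone vertical sleeve gastrectomy (VSG), which removed about 70% of the stomach, or a sham operation, to ask whether the operation changes these cells. The 48 libraries came from 17 mice and fell into 9 groups, with 5 sham-operated mice fed ad libitum, 5 sham-operated mice held by food restriction at the weight of the VSG mice and 6 VSG mice in each of duodenum, ileum and colon. Of the mice, 15 gave all 3 tissues. All were lean, chow-fed male Neurod1-cre/EYFP mice on a C57BL6 background, about 20 weeks old at surgery, and all groups were killed 6 weeks after surgery, after an overnight fast and about 15 minutes after a gavage of 3 g/kg glucose. The Cre is driven by Neurod1, a transcription factor of the EEC lineage, so the sorted YFP-positive, CD45-negative cells are those that express or once expressed Neurod1, of every EEC subtype at once. The library of a tissue is therefore an average over EEC subtypes, and fewer cells of a type and less RNA per cell cannot be told apart.

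Piezo1 and Piezo2 form channels that open when the membrane is stretched, and Piezo2 is known as the touch receptor of sensory nerves and of enterochromaffin cells, the serotonin-producing EECs. Trpa1 is a cation channel opened by irritants such as mustard oil and is likewise known in enterochromaffin cells. Trpm2 opens with ADP-ribose and oxidative stress, Trpm4 is a channel for monovalent cations opened by intracellular calcium, Trpm3 is opened by heat and steroids, Trpc1, Trpc4 and Trpc5 belong to the canonical subfamily that acts downstream of receptors coupled to phospholipase C, and Trpv4 responds to osmotic swelling and warmth.

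RefSeq promoter sequence of the GRCm38.p6 assembly was held for 7 of the 10 genes. Shown are the 250 bases before the start of 4 genes whose levels differed between tissues: Trpm2, Trpc4 and Trpc5, which were highest in the duodenum, and Piezo1, which was lowest there. Each runs 5′ to 3′ on the strand of the gene, with CG pairs in capitals. Positions are chr10:77969873-77970122 (minus strand) for Trpm2, chr3:54155807-54156056 (plus strand) for Trpc4, chrX:144688181-144688430 (minus strand) for Trpc5 and chr8:122551330-122551579 (minus strand) for Piezo1. In the GRCm38 gene annotation, Trpm2 spans chr10:77907722-77970563, so that its window lies inside the gene body of a longer annotated form, Trpc4 spans chr3:54156035-54318471, whose first exon bases close its window, and Trpc5 (chrX:144381671-144688180) and Piezo1 (chr8:122481698-122551329) end next to theirs. Trpa1, for which no promoter is shown, spans chr1:14872648-14918862 on the minus strand.
Trpm2: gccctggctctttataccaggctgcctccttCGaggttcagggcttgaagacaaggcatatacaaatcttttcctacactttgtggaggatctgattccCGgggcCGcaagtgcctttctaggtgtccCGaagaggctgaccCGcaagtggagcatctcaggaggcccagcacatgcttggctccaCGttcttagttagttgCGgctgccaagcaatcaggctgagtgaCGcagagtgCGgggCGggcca
Trpc4: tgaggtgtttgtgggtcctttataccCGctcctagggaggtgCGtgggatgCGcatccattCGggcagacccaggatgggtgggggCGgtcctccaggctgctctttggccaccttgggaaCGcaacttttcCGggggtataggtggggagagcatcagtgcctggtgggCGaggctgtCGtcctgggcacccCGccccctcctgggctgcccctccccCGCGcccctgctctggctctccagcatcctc
Trpc5: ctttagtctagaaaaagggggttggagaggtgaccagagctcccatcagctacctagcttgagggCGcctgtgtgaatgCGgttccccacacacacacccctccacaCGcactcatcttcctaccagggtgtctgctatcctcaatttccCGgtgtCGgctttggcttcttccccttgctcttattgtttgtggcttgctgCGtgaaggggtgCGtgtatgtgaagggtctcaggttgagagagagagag
Piezo1: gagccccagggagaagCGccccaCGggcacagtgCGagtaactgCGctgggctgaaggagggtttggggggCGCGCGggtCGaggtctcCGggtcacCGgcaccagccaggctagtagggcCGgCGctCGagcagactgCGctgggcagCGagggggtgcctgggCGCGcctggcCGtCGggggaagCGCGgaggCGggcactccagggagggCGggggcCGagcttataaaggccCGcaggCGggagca
The Piezo1 window was 74.0% GC with 26 CG pairs, and 95.1% of the 32851 promoter windows in the table had a lower GC content. The windows of Trpm2 (56.8% GC, 10 CG pairs), Trpc4 (66.4% GC, 12 CG pairs) and Trpc5 (54.4% GC, 7 CG pairs) lay nearer to the medians of all windows, 52.4% GC and 6 CG pairs. Even so, 85.2% of all windows had a lower GC content than that of Trpc4. A high GC content was not particular to Piezo1. The window of Trpv4, which passed in none of the tissue comparisons below, was 72.0% GC with 22 CG pairs, above 93.1% of windows. That of Trpc1 was 62.8% GC with 17 CG pairs. Searched on both strands, the NEUROD1 E-box letters CAGATG, the GATA letters AGATAA and the CDX letters TTTATG were found in 0 of the 4 windows shown. They were found in 0 of those of Trpc1 and Trpv4 as well, against 14.4%, 9.99% and 10.8% of all windows.

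Libraries held 4648651 to 17182463 counts (median 6713018). Neurod1 and Chga, which encodes the granule protein chromogranin A, were above 0 in all 48 libraries, with medians of 378 and 17984 CPM, whereas the summed levels of 9 markers of enteric neurons and glia never exceeded 16.4 CPM. Other epithelial cell types were read at higher levels: the sum of 6 goblet cell markers was 1418 to 13694 CPM, with medians of 3420, 3806 and 9030 CPM in duodenum, ileum and colon, and that of 5 Paneth cell markers was 122 to 3675, 1053 to 11093 and 2.09 to 61.5 CPM. The sum of 7 enterocyte markers had medians of 5653, 7011 and 395 CPM in duodenum, ileum and colon, and that of 5 crypt markers 1122, 2011 and 114 CPM. These sums moved with tissue, and their part in the tissue differences was not tested. CPM, the level used throughout, are counts relative to the library total after scaling by the trimmed mean of M values (TMM). One duodenal library stood apart: that of mouse 27, a weight-matched sham mouse, had the lowest sum of 8 EEC markers (12018 CPM, others 38619 to 74350) and the highest sum of 7 enterocyte markers (36858 CPM, others 4375 to 12263). For mouse 12, the codes in the descriptions of its ileal and colonic libraries go against their tissue labels. The tissue label was used. The sum of 7 enterocyte markers was 6936 CPM in its library labelled ileum (other ileal libraries 3442 to 11996) and 433 CPM in that labelled colon (other colonic libraries 232 to 595). The sum of 5 colonocyte markers was 283 CPM in the former (others 105 to 207) and 779 CPM in the latter (others 482 to 1729). The second sequencing index also followed tissue, so that for most libraries index and tissue cannot be told apart. Of the 4 second indices, 1 was used for 12 duodenal libraries only and 1 for 11 colonic libraries and 1 ileal. A further index held 7 ileal, 4 duodenal and 1 colonic libraries, here called the index shared by ileum and duodenum, and the last held 8 ileal and 4 colonic libraries, the index shared by ileum and colon. Values within these indices are given beside the tissue comparisons.

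Most of the channels differed between some tissues, while Trpm3 and Trpv4 passed in none of the 3 tissue comparisons. Between ileum and duodenum, 6 of the 10 genes passed an adjusted p of 0.05, 2 higher and 4 lower in ileum, against 33.8% of all genes tested (17.2% higher, 16.6% lower). Between colon and duodenum, 8 passed, 3 higher and 5 lower in colon, against a background of 55.0% (26.8% higher, 28.3% lower). Between colon and ileum, 7 passed, 3 higher and 4 lower in colon, against 49.2% (23.8% higher, 25.4% lower). With the second index as a covariate, 2, 6 and 5 of the 10 passed. The backgrounds above are from the model without the index, and the shares of all genes with it are not given here. The libraries of the pair of tissues did not overlap at all for 1, 3 and 2 of the 10 genes, where the shares over all genes tested were 1.46%, 9.75% and 7.14%. The median log2 difference of the 10 genes was -0.38, -0.84 and -0.46 in these comparisons, and that of all genes was 0.00, -0.01 and -0.01.

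**Figure D1:**
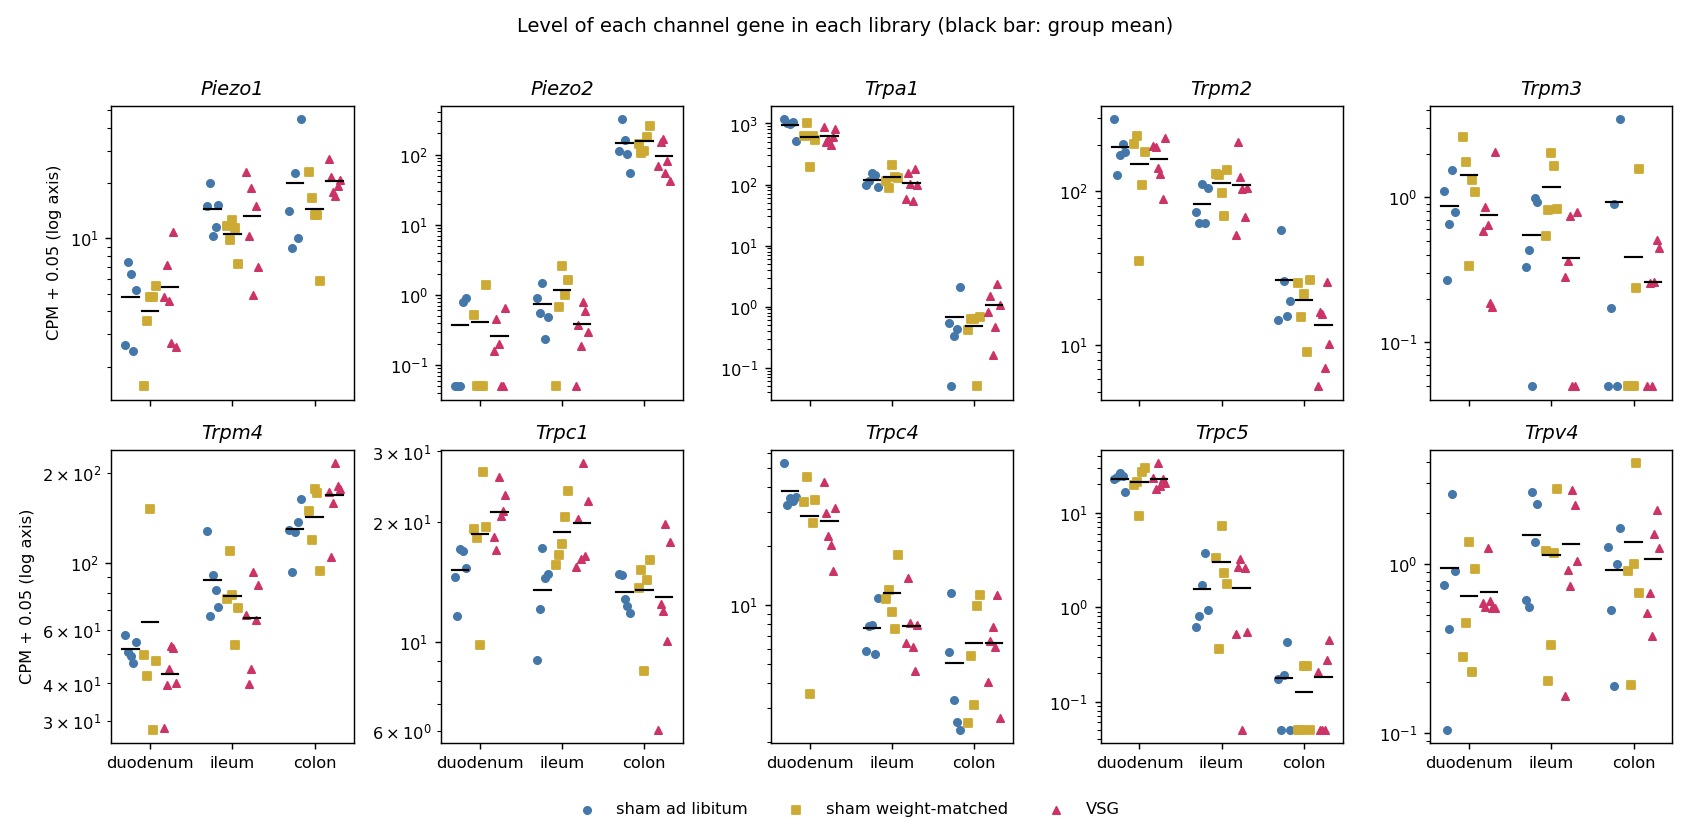
Level of each of the 10 channel genes in every library, in CPM plus 0.05 on a log axis, by tissue and surgical condition; each point is 1 library and each black bar a group mean. Trpa1 lies between 191 and 1168 CPM in duodenum and at or below 2.28 CPM in colon, while Piezo2 lies between 42.2 and 317 CPM in colon and at or below 1.32 CPM in duodenum.

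Trpa1 was the most abundant of the 10 in duodenum and close to 0 in colon. In duodenum its level was 1168, 1007, 973, 1075 and 511 CPM in sham mice fed ad libitum, 633, 1033, 191, 631 and 546 CPM in weight-matched sham mice, and 452 to 885 CPM (median 570.0) in VSG mice. The lowest value, 191 CPM, came from mouse 27. In ileum it was 98.8, 114, 155, 143 and 90.2 CPM in sham mice fed ad libitum, 116, 89.2, 211, 134 and 126 CPM in weight-matched sham mice and 53.1 to 177 CPM in VSG mice. The tissues touched only where the ileal library of mouse 27 (211 CPM) lay above its duodenal one, and 14 of 15 mice were lower in ileum. In colon, Trpa1 had 69 counts over 16 libraries, with 2 libraries at 0 and a highest level of 2.28 CPM. A count of 3 corresponds to 0.311 to 0.684 CPM in colonic libraries, so most colonic values rest on a few reads.
The log2 difference was -2.57 (SE 0.205, adjusted p = 1.29e-13) for ileum against duodenum and -10.16 (SE 0.322, adjusted p = 5.73e-28) for colon against duodenum. The SE given with each log2 difference is its absolute value divided by the square root of the F statistic of its edgeR test. All 15 mice with both tissues were lower in colon than in duodenum, and all 16 were lower in colon than in ileum. Within the index shared by ileum and duodenum, Trpa1 was lower in 7 ileal than in 4 duodenal libraries without overlap (mean log2 difference -2.51). Within the index shared by ileum and colon, it was lower in 4 colonic than in 8 ileal libraries, again without overlap (-6.37).

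Piezo2 had the opposite pattern and was the gene with the largest rise toward the colon among the 10. In colon its level was 111, 317, 159, 100 and 54.0 CPM in sham mice fed ad libitum, 140.0, 106, 113, 179 and 252 CPM in weight-matched sham mice, and 42.2 to 166 CPM (median 74.0) in VSG mice. These ranges overlapped among the surgical conditions. In duodenum it had 37 counts over 16 libraries, 8 of them at 0, and in ileum 71 counts, with 2 libraries at 0 and a highest level of 2.55 CPM. The log2 difference was 8.81 (SE 0.396, adjusted p = 2.01e-22) for colon against duodenum and 7.70 (SE 0.372, adjusted p = 4.92e-21) for colon against ileum, with every mouse higher in colon. The difference of 1.11 between ileum and duodenum did not pass (SE 0.643, adjusted p = 0.189), and 9 of 15 mice were higher in ileum. Within the shared index, the 4 colonic libraries were higher than the 8 ileal ones without overlap (5.96). Enteric neurons also express Piezo2, and in colon the summed level of the 9 neuron and glia markers was 1.23 to 16.4 CPM. Of these markers, Sox10 was at 0 in 33 and S100b in 41 of all 48 libraries.
Piezo1 was read at lower levels and rose along the gut. Its level was 4.75 ± 2.37 CPM in duodenum, 12.7 ± 4.93 CPM in ileum and 18.4 ± 8.93 CPM in colon (SD, n = 16 each), and the ranges of 1.52 to 10.8, 4.87 to 23.0 and 5.79 to 44.3 CPM overlapped. All 15 mice were nevertheless higher in ileum than in duodenum (log2 difference 1.43, SE 0.232, adjusted p = 2.91e-06) and all 15 were higher in colon than in duodenum (1.94, SE 0.232, adjusted p = 7.9e-10). Colon against ileum passed narrowly (0.52, SE 0.221, adjusted p = 0.0492), with 11 of 16 mice higher in colon. Within the shared indices the differences were 1.14 for ileum against duodenum and 0.66 for colon against ileum, both with overlap, and with the index as a covariate the former did not pass (1.07, adjusted p = 0.132). The call for colon against ileum was lost on leaving out any 1 of mice 16, 17, 18, 19, 21, 25, 29, 30 and 32 (0.35 to 0.53). It was also lost with the mouse as a random block (0.39, adjusted p = 0.082). Piezo1 shares 2441 exon bases, 24.57% of its own, with Ctu2 on the opposite strand, and whether reads were counted by strand is not given in the sources used here, so its level is uncertain to that extent. Ctu2 itself was 8.9 ± 1.83 CPM in duodenum, 12.0 ± 3.9 in ileum and 10.2 ± 2.16 in colon (SD, n = 16 each), a log2 difference of 0.21 between colon and duodenum (adjusted p = 0.142) and of 0.35 between ileum and duodenum (adjusted p = 0.0209).

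**Figure D2:**
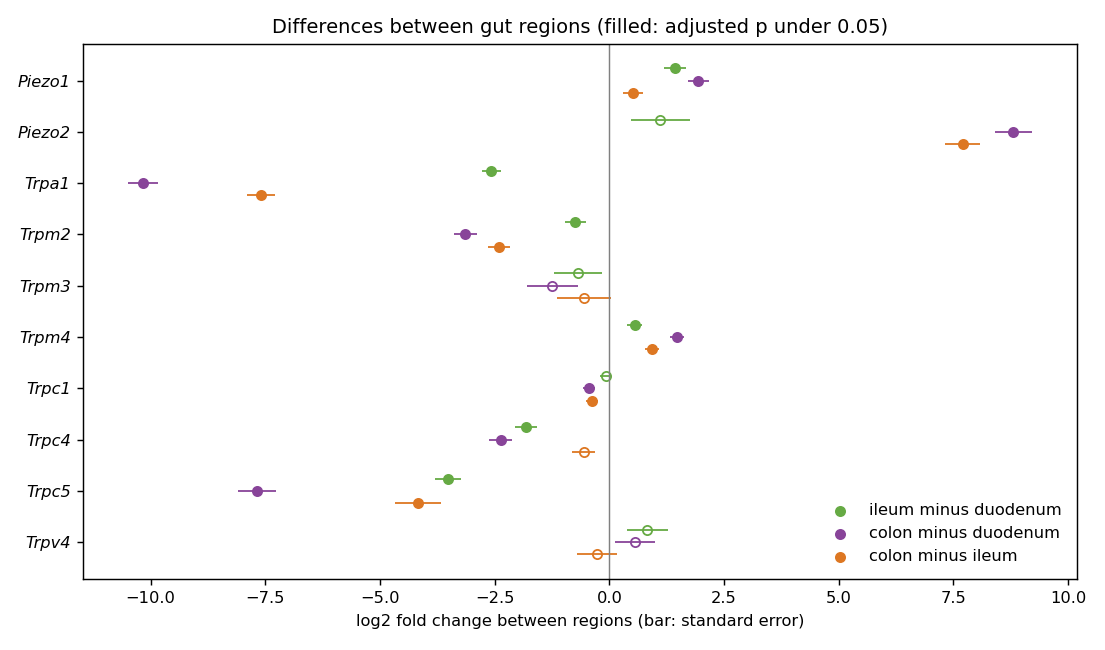
Log2 difference between tissues for each of the 10 channel genes from the model over 48 libraries. Bars are 1 standard error derived from the F statistic, and filled points passed an adjusted p of 0.05. Piezo2 reaches 8.81 and Trpa1 -10.16 for colon against duodenum, and Trpv4 passes in none of the 3 comparisons.

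The 3 melastatin channels differed in pattern. Trpm2 was highest in duodenum, at 293, 128, 172, 202 and 179 CPM in sham mice fed ad libitum, 202, 229, 35.0, 109 and 181 CPM in weight-matched sham mice, and 88.8 to 222 CPM (median 168) in VSG mice. It was 102 ± 39.7 CPM in ileum and 19.4 ± 11.9 CPM in colon (SD, n = 16 each). Colon was lower than duodenum in 15 of 15 mice (log2 difference -3.14, SE 0.246, adjusted p = 1.37e-14) and lower than ileum in 16 of 16 (-2.40, SE 0.24, adjusted p = 2.59e-11). Ileum against duodenum was smaller (-0.74, SE 0.223, adjusted p = 0.00869), and the value was -0.09 within the shared index, or -0.70 without mouse 27. With the index as a covariate it was -0.04 (adjusted p = 0.979). Within the index shared by ileum and colon, colon was lower without overlap (-2.63).
Trpm4 rose from 52.3 ± 27.7 CPM in duodenum through 76.5 ± 22.5 in ileum to 148 ± 34.8 in colon (SD, n = 16 each). Colon exceeded ileum in 16 of 16 mice (log2 difference 0.93, SE 0.156, adjusted p = 2.36e-06) and duodenum in 15 of 15 (1.48, SE 0.158, adjusted p = 4.88e-11), and ileum exceeded duodenum in 14 of 15 (0.55, SE 0.156, adjusted p = 0.00487). The highest duodenal value, 151 CPM, came from mouse 27 and the others were 28 to 58.0 CPM. Without that library, colon and duodenum differed by 1.70. Within the index shared by ileum and colon, colon was higher than ileum without overlap (1.04), whereas within that shared by ileum and duodenum these tissues differed by -0.01, or 0.36 without mouse 27. With the index as a covariate, neither ileum (-0.10, adjusted p = 0.875) nor colon (0.74, adjusted p = 0.0626) passed against duodenum. The sum of 5 colonocyte markers moved the same way, from 80.3 to 296 CPM in duodenum and 105 to 283 CPM in ileum to 482 to 1729 CPM in colon. Car4, Slc26a3 and Ceacam20 were above 0 in all 48 libraries, and Car1 was at 0 in 3 and Aqp8 in 17. Their part in the Trpm4 difference was not tested.
Trpm3 was near the limit of these libraries, at 0.948 ± 0.706, 0.631 ± 0.556 and 0.458 ± 0.881 CPM in duodenum, ileum and colon (SD, n = 16 each), with 128, 66 and 42 counts in all. Its difference of -1.24 between colon and duodenum did not pass (SE 0.552, adjusted p = 0.0537). It passed with the mouse as a fixed block (-1.60, adjusted p = 0.0284) or as a random block (-1.82, adjusted p = 0.00119), and also without the duodenal library of mouse 27 (-1.31, adjusted p = 0.0419). It passed, too, on leaving out any 1 of mice 25, 28, 31 and 32, and was -2.17 without mouse 31. Within the shared indices it differed by 0.01 for ileum against duodenum and by 0.40 for colon against ileum, both with overlap.

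Of the canonical channels, Trpc5 and Trpc4 were highest in duodenum, and Trpc1 was lower in colon than in both other tissues. Trpc5 was 22.7, 24.1, 26.1, 24.7 and 16.6 CPM in duodenum of sham mice fed ad libitum, 19.8, 21.3, 9.23, 26.9 and 29.6 CPM in weight-matched sham mice and 17.9 to 33.6 CPM in VSG mice, with the lowest value again from mouse 27. In ileum the highest library was 7.22 CPM and 1 was at 0, and in colon there were 10 counts over 16 libraries, 8 of them at 0. The log2 difference was -3.51 (SE 0.287, adjusted p = 7.41e-14) for ileum and -7.68 (SE 0.421, adjusted p = 8.33e-21) for colon against duodenum. Duodenal libraries did not overlap with those of either tissue, nor with the ileal ones within the shared index (-3.18).
Trpc4 was 53.1, 32.6, 35.4, 33.9 and 35.6 CPM in duodenum of sham mice fed ad libitum, 33.8, 44.9, 3.46, 26.2 and 34.5 CPM in weight-matched sham mice and 14.9 to 42.7 CPM in VSG mice. It was 8.87 ± 3.49 CPM in ileum and 5.96 ± 3.4 CPM in colon (SD, n = 16 each). Mouse 27 gave the 3.46 CPM, and this library and the lowest VSG library, at 14.9 CPM, were the only duodenal ones below the highest ileal one of 18.1 CPM. Ileum was lower than duodenum in 14 of 15 mice (-1.81, SE 0.242, adjusted p = 6.82e-08) and colon in 15 of 15 (-2.37, SE 0.249, adjusted p = 3.34e-11). Within the index shared by both, the ileal difference was -1.22 with overlap and -2.06 without overlap once mouse 27 was left out. With index as a covariate it did not pass (-1.08, adjusted p = 0.192). Colon against ileum did not pass (-0.56, SE 0.252, adjusted p = 0.0598), but did with the mouse as a fixed block (-0.63, adjusted p = 0.0417) and on leaving out any 1 of mice 13, 27, 28 and 29.
Trpc1 varied least, at 18.4 ± 4.57, 17.5 ± 4.64 and 13.2 ± 3.37 CPM in duodenum, ileum and colon (SD, n = 16 each). It was lower in colon than in duodenum in 13 of 15 mice (-0.45, SE 0.127, adjusted p = 0.00243) and than in ileum in 14 of 16 (-0.37, SE 0.128, adjusted p = 0.0153). Ileum and duodenum differed by -0.08 (adjusted p = 0.673). With the index as a covariate, colon passed neither against ileum (-0.27, adjusted p = 0.227) nor against duodenum, where the sign turned (0.13). Within the shared indices the values were 0.46 for ileum against duodenum and -0.56 for colon against ileum, both with overlap.
Trpv4 was read at 0.706 ± 0.592, 1.26 ± 0.929 and 1.06 ± 0.927 CPM in the 3 tissues (SD, n = 16 each), from 87, 118 and 100 counts. Its differences of 0.83 for ileum and 0.56 for colon against duodenum did not pass (adjusted p = 0.145 and 0.288), so that a difference was not detectable at this depth. Within the shared indices it differed by 0.51 for ileum against duodenum and by -0.14 for colon against ileum, both with overlap.

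Levels of different genes were compared per length, as CPM per kb of the union of annotated exons. In duodenum, Trpa1 (170.0 CPM per kb) stood above Trpm2 (13.6), followed by Trpm4 (4.83), Trpc5 (4.46), Trpc4 (3.85), Trpc1 (2.29), Piezo1 (0.478), Trpv4 (0.173), Trpm3 (0.0388) and Piezo2 (0.017). Trpm4 and Trpc5, and Trpc5 and Trpc4, did not differ beyond their spread (adjusted p = 0.889 and 0.11, exact two-sided sign-flip permutation test over 16 libraries), while each other neighbour did. In ileum the order was Trpa1 (28.2 CPM per kb), Trpm2 (8.21), Trpm4 (7.07), Trpc1 (2.18), Piezo1 (1.28), Trpc4 (1.1), Trpc5 (0.395), Trpv4 (0.31), Piezo2 (0.0404) and Trpm3 (0.0258). Here Trpm2 and Trpm4, Piezo1 and Trpc4, Trpc5 and Trpv4, and Piezo2 and Trpm3 did not differ.
In colon, Trpm4 came first (13.7 CPM per kb), above Piezo2 (7.63), Piezo1 (1.86), Trpc1 (1.65), Trpm2 (1.55), Trpc4 (0.742), Trpv4 (0.261), Trpa1 (0.167), Trpc5 (0.0225) and Trpm3 (0.0187). Piezo1, Trpc1 and Trpm2 in succession did not differ, nor did Trpv4 and Trpa1, or Trpc5 and Trpm3. In all, 17 of 27 neighbouring pairs differed. Of the summed per-length level of the 10 genes, Trpa1 made up 83.6% ± 5.36 in duodenum, 56.4% ± 9.6 in ileum and 0.628% ± 0.576 in colon, where Trpm4 made up 50.3% ± 12.3 and Piezo2 26.9% ± 12.4 (SD, n = 16 each). The union length of Trpm4 is 10.826 kb and its longest transcript 4.315 kb, and with transcript lengths Trpm4 was 34.3 CPM per kb in colon and lay above Trpm2 in ileum (17.7 and 14.1 CPM per kb). With these lengths, too, Trpc4 lay above Trpc5 in duodenum (8.9 and 5.38) and above Piezo1 in ileum (2.55 and 1.54). In colon Trpc1 (2.9) and Trpm2 (2.66) lay above Piezo1 (2.24), and Trpm3 (0.0372) above Trpc5 (0.0271).

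**Figure D3:**
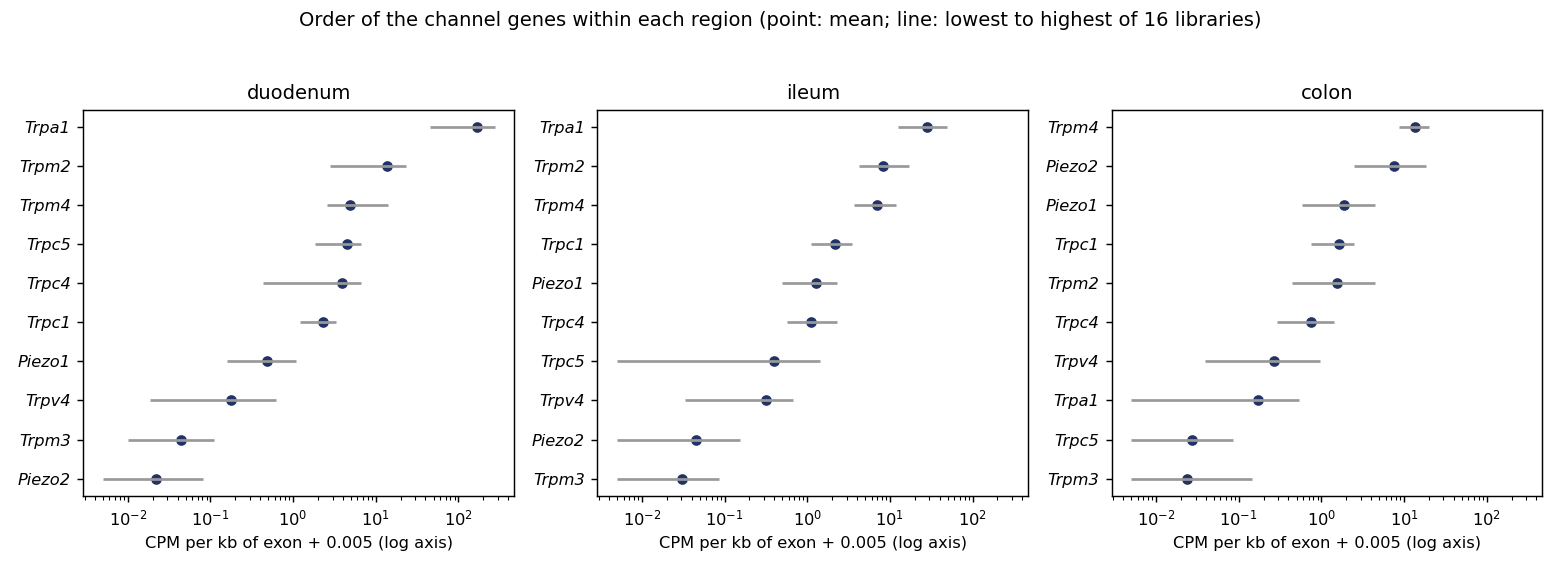
Level per length of the 10 channel genes in each tissue, in CPM per kb of exon union on a log axis with a small constant added so that 0 can be drawn; points are means and lines run from the lowest to the highest of 16 libraries. Trpa1 leads in duodenum (170.0) and ileum (28.2), and Trpm4 (13.7) and Piezo2 (7.63) lead in colon.

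Other genes of these families were read against the same backgrounds of 33.8%, 55.0% and 49.2% of all genes called for ileum against duodenum, colon against duodenum and colon against ileum. Of 20 other TRP channel genes, 12 passed the filter, and 7, 9 and 8 of them were called for ileum against duodenum (2 higher, 5 lower), colon against duodenum (5 higher, 4 lower) and colon against ileum (6 higher, 2 lower). Trpc7, a canonical channel, was close to 0 in colon, with log2 differences of -6.60 (SE 0.291) against duodenum and -5.79 (SE 0.293) against ileum. Its 0.413 ± 0.404 CPM in colon (SD, n = 16) compared with 40.0 ± 14.2 in duodenum and 22.5 ± 6.75 in ileum. Trpc5 had likewise been close to 0 in colon. Trpm6, a magnesium channel, was higher in ileum than in duodenum by 2.88 (SE 0.296) and in colon by 5.20 (SE 0.296). Trpv3 followed the same order, higher by 1.96 (SE 0.467) in ileum and 3.81 (SE 0.457) in colon. Trpv6, an epithelial calcium channel, was lower in ileum than in duodenum by -2.63 (SE 0.798) and higher in colon than in ileum by 5.70 (SE 0.721), from 30 counts in duodenum, 2 in ileum and 215 in colon.
Of 14 other mechanosensing genes, 9 were tested, and against the same backgrounds 4 (2 higher, 2 lower), 8 (5 higher, 3 lower) and 8 (5 higher, 3 lower) were called. Tmem150c, known as Tentonin 3, was higher in colon than in duodenum by 4.18 (SE 0.425) and than in ileum by 3.87 (SE 0.422), as Piezo2 was. Mdfic, an auxiliary subunit of Piezo channels, was higher than in duodenum by 2.76 (SE 0.474) in ileum and 3.58 (SE 0.469) in colon. Tmem63c, of a family of osmosensitive channels, was higher in ileum than in duodenum by 1.32 (SE 0.277). The stretch-activated potassium channel genes went the other way: Kcnk2 was lower than in duodenum by -2.15 (SE 0.339) in ileum and -3.94 (SE 0.388) in colon, and Kcnk10 was lower in colon than in ileum by -1.73 (SE 0.271).
Of 9 enterochromaffin genes, all were tested and 8 (4 higher, 4 lower), 5 (3 higher, 2 lower) and 8 (6 higher, 2 lower) were called. Tph1, the rate-limiting enzyme of gut serotonin synthesis, was lower in ileum than in duodenum by -1.18 (SE 0.169), and between colon and duodenum it differed by 0.32 (SE 0.167, adjusted p = 0.105). Olfr558, an odorant receptor, rose by 3.42 (SE 0.222) in ileum and 4.74 (SE 0.225) in colon, Htr4, a serotonin receptor, by 1.48 (SE 0.258) and 3.00 (SE 0.256), and Tac1, which encodes substance P, was lower in colon than in duodenum by -1.72 (SE 0.214) and than in ileum by -2.64 (SE 0.221). Cacna1h, a T-type calcium channel, was lower in ileum than in duodenum by -1.80 (SE 0.167).

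Within a tissue, levels of several channels followed Tph1 from library to library. These correlations are over 16 libraries of 1 tissue with surgical group means removed, share library, depth and cell purity, and are given as descriptions. In duodenum, Pearson's r with Tph1 was 0.97 for Trpc4, 0.92 for Trpm2 and 0.78 for Trpa1, and without mouse 27 it was 0.86, 0.79 and 0.37. For Trpc1 and Trpc5 it was 0.50 and 0.52 with mouse 27 and -0.62 and -0.57 without it, so that the sign rested on that 1 library. The sum of EEC markers followed in the same way, with r of 0.94 for Trpc4, 0.93 for Trpm2 and 0.88 for Trpa1 (0.73, 0.80 and 0.70 without mouse 27). Other enterochromaffin genes were mixed. Without mouse 27, r of Trpm2 was 0.90 with Lmx1a, -0.48 with Ddc and -0.78 with Adra2a. With the same genes in order, r was 0.86, -0.47 and -0.56 for Trpc4 and 0.50, 0.10 and -0.31 for Trpa1. In colon, r with Tph1 was 0.45 for Piezo2, -0.57 for Piezo1 and -0.70 for Trpm4. Here, too, the enterochromaffin genes were mixed: for Piezo2, r was 0.59 with Cacna1h, -0.40 with Adra2a and -0.42 with Htr4. With the sum of EEC markers, r was 0.34 for Piezo2, -0.31 for Piezo1 and -0.74 for Trpm4. With the sum of the 5 colonocyte markers it was 0.85 for Trpm4 and -0.73 for Piezo2. With the sum of goblet cell markers it was 0.71 for Trpm4, and with that of the enteric neuron and glia markers 0.47 for Piezo2. The part of these cell types in the levels was not tested.
Per 1000 Tph1 counts, Trpm2 had 70.6 ± 13.5 counts in duodenum and 96.8 ± 14.2 in ileum, but 6.7 ± 3.39 in colon (SD, n = 16 each). In duodenum the SD of the log2 ratio was 0.30 in sham mice fed ad libitum and 0.31 in VSG mice, against 0.43 and 0.49 for log2 CPM of Trpm2 in the same libraries. In these groups the ratio also varied less than log2 CPM for Trpc4 (0.14 and 0.31 against 0.28 and 0.53). It varied more for Trpa1 (0.52 and 0.42 against 0.48 and 0.39) and for Trpc5 (0.42 and 0.59 against 0.25 and 0.32). In weight-matched sham mice, which include mouse 27, the ratio varied less for each of these genes. There it was 0.23 against 1.10 for Trpm2, 0.49 against 1.43 for Trpc4, 0.25 against 0.90 for Trpa1 and 0.58 against 0.64 for Trpc5. Over all 16 duodenal libraries it was 0.45 against 0.66 for Trpa1 and 0.53 against 0.41 for Trpc5. Trpa1 had 312 ± 90.2 counts per 1000 of Tph1 in duodenum and 125 ± 60.3 in ileum, and Piezo2 had 45.6 ± 21.4 in colon (SD, n = 16 each).
The genes with patterns most like each channel were sought among 10390 genes in duodenum and 10380 in colon, in the tissue where the channel was highest. Those for Trpa1 were Lhx1 (r = 0.98, and 0.98 without mouse 27), Gpat4 (0.96 and 0.91) and Amigo2 (0.96 and 0.90), and those for Trpm2 were Pkdcc (0.98 and 0.96), Itpr3 (0.97 and 0.93) and Ppl (0.97 and 0.91). Trpc4 was followed by Dnaja4, Cwh43 and Ahi1 (0.98 each, 0.90 each without mouse 27). For Trpc5 they were Akap17b (0.90 and 0.71), Fndc3a (0.89 and 0.75) and Frmd4a (0.89 and 0.72), and for Trpc1 Rcor3 (0.93 and 0.82), Trank1 (0.92 and 0.80) and A730089K16Rik (0.92 and 0.79). In colon they were Sulf1 (0.93), Nptx1 (0.92) and Vipr2 (0.92) for Piezo2, Slc25a39 (0.97), Il17rc (0.95) and Sqor (0.94) for Trpm4, and Gpr35 (0.90), Hk2 (0.88) and Slc4a4 (0.88) for Piezo1.

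**Figure D4:**
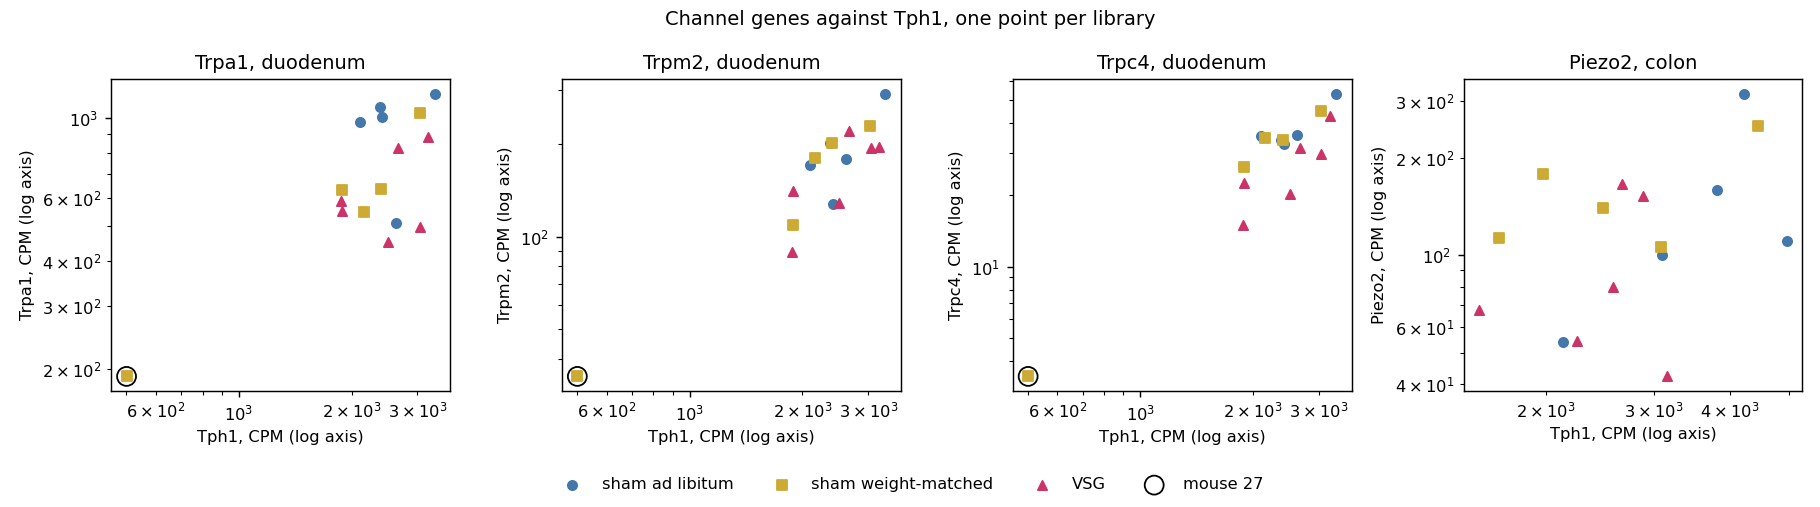
Levels of Trpa1, Trpm2 and Trpc4 in duodenum and of Piezo2 in colon against that of Tph1, in CPM on log axes, with 1 point for each of 16 libraries of the tissue, marked by surgical condition and with the duodenal library of mouse 27 circled. That library lies at the lower left of the 3 duodenal panels, at 191 CPM of Trpa1, 35.0 CPM of Trpm2 and 3.46 CPM of Trpc4.

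Surgery was compared as the difference averaged over the 3 tissues, within each tissue, and as the interaction of surgery and tissue. Of the 10 channel genes, 0 passed an adjusted p of 0.05 in any of these edgeR tests. Over all genes tested, 0% were called for VSG against sham ad libitum (837 genes at an unadjusted p under 0.05, and 26 genes called by DESeq2), 0.245% for VSG against weight-matched sham and 0.0529% for weight-matched sham against sham ad libitum. Within duodenum, ileum and colon in turn, the shares were 0% in each for VSG against sham ad libitum, 0.225%, 0.0463% and 0.0595% for VSG against weight-matched sham, and 0%, 0% and 0.0132% for weight-matched sham against sham ad libitum. At an unadjusted p of 0.05, 1 channel gene passed in each averaged comparison, and 0 did for the interaction, where Trpm4 had the lowest p (0.116). Over all 15126 genes, 1500 passed at that level for VSG against weight-matched sham, 967 for weight-matched sham against sham ad libitum and 740 for the interaction. With DESeq2 and limma likewise, 0 of the 10 passed in the averaged comparisons. The comparisons share control groups.
Trpc1 had the lowest unadjusted p of the 10 against sham ad libitum. In duodenum it was 14.5, 11.6, 17.1, 16.9 and 15.3 CPM in sham mice fed ad libitum, 19.1, 18.2, 9.81, 26.6 and 19.4 CPM in weight-matched sham mice and 17 to 25.9 CPM in VSG mice. In ileum it was 9.01, 12.1, 17.2, 14.4 and 14.8 CPM, 15.6, 16.5, 17.6, 20.5 and 23.9 CPM, and 15.4 to 28 CPM in the same order of groups. The averaged differences were 0.33 for VSG (SE 0.126, adjusted p = 0.709) and 0.27 for weight-matched sham (SE 0.131, adjusted p = 0.774) against sham ad libitum, and VSG and weight-matched sham differed by 0.06 (SE 0.125, adjusted p = 0.939).
For Piezo2, the averaged differences were -0.64 (SE 0.577, adjusted p = 0.998) for VSG against sham ad libitum and -1.08 (SE 0.543, adjusted p = 0.51) against weight-matched sham. They average over tissues in which Piezo2 was close to 0. In colon alone, where it was read well, they were -0.66 (SE 0.401, adjusted p = 0.791) and -0.75 (SE 0.401, adjusted p = 1). Trpa1 in duodenum differed by -0.58 for VSG (SE 0.328, adjusted p = 1) and by -0.64 for weight-matched sham (SE 0.345, adjusted p = 0.826) against sham ad libitum. The weight-matched group holds the 191 CPM of mouse 27. Trpm2 in colon was 14.6, 55.9, 26.2, 15.5 and 19.4 CPM in sham mice fed ad libitum, 25.3, 15.1, 21.6, 8.92 and 26.6 CPM in weight-matched sham mice and 5.37 to 25.8 CPM (median 13) in VSG mice. That gave -0.98 for VSG against sham ad libitum (SE 0.407, adjusted p = 0.777), with overlapping groups. Trpm4 in duodenum differed by -0.57 between VSG and weight-matched sham (SE 0.265, adjusted p = 0.512), a group that holds the 151 CPM of mouse 27. Piezo1 was higher by 0.44 in VSG than in weight-matched sham when averaged over tissues (SE 0.225, adjusted p = 0.524). In ileum alone Piezo1 differed by 0.35 between these groups (SE 0.381, adjusted p = 0.964), with 0.45 in duodenum and 0.51 in colon. Ctu2, which shares exon bases with Piezo1, differed by 1.0 between the same groups in ileum (adjusted p = 0.042).
Trpm3 differed by -1.17 between VSG and weight-matched sham (SE 0.555, adjusted p = 0.476), from levels near 1 CPM or below. Trpm2, Trpm4, Trpc4 and Trpv4 had averaged differences between -0.28 and 0.17 in the 3 comparisons, and those of Trpc5 were between -0.03 and 0.02. Among the other TRP channel, mechanosensing and enterochromaffin genes, 0 were called in these comparisons, averaged or within a tissue.

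**Figure D5:**
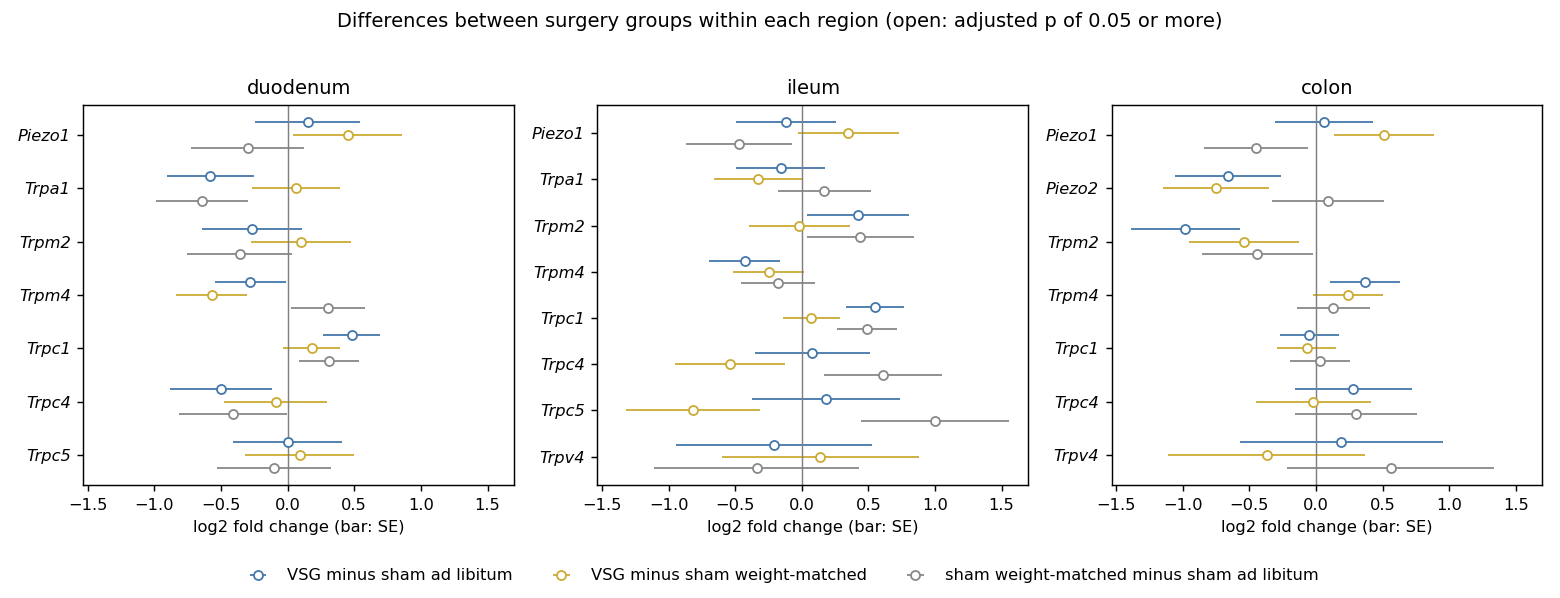
Log2 differences between the 3 surgical conditions within each tissue, for the channel genes with a mean of at least 1 CPM in that tissue. Bars are 1 standard error derived from the F statistic, and open points did not pass an adjusted p of 0.05. All points are open, and among them are Trpm2 in colon (-0.98) and Trpc1 in ileum (0.55) for VSG against sham ad libitum.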

How the data were processed

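The RNA of FACS-sorted cells (2 ng) was made into libraries with a stranded total-RNA kit and sequenced single-end with 50-base reads. The authors aligned reads with STAR 2.5.1 to GRCm38 and deposited raw counts per gene. The strand setting of counting is not given in the sources used here. Samples were grouped by their labels. Of 53465 genes, 53274 matched the GENCODE M21 annotation used for positions and lengths. Genes were filtered with filterByExpr and tested with edgeR 4.0.16 (quasi-likelihood, robust, TMM, R 4.3.3) on 9 groups over all 48 libraries, with Benjamini-Hochberg adjustment over 15126 genes and a threshold of 0.05. SE is the absolute log2 difference divided by the square root of the quasi-likelihood F, and was not taken from the fit. It is unstable for differences near 0, at 0.196, 0.934 and 0.394 for Trpc5 in the 3 averaged surgery comparisons. Members and gene lists were chosen with earlier results of these data known. Named were all 10 genes, the up to 3 called genes of each list with the largest change per tissue comparison, and the 3 genes most correlated with each channel of at least 5 CPM in some tissue. Correlations used log2 CPM with a prior count of 2, and neighbouring levels log2(CPM per kb + 0.05). Mouse numbers pair samples from the same animal: residuals of same-mouse libraries correlated with a median r of 0.111 (46 pairs, -0.0704 to 0.391, 25 over 0.1). The common biological coefficient of variation was 0.302. Alternatives were DESeq2 1.42.0, limma 3.58.1 with voom, mouse as a block, sums per mouse, other filters, the index as a covariate and leaving out each mouse. Leaving out the duodenal library of mouse 27 was added after seeing the data. The fit was tested on simulated data. Intervals and limits of 3 counts cover counting error only. Some genes that these rules name are not reported here.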

Additional observations from a re-analysis of the deposited data

Results flagged for a closer look

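In 6 of 90 groups of a channel gene, 1 library lay far from the others by Dixon's ratio, which chance alone gives in about 1 of 20 groups. Trpa1 in duodenum of sham mice fed ad libitum was 511 CPM in mouse 32, where the nearest was 973. Trpc4 in the same group was 53.1 CPM in mouse 12, where the nearest was 35.6. In weight-matched sham mice, Trpc4 in duodenum was 3.46 CPM in mouse 27 (nearest 26.2), Trpc1 in colon was 8.43 CPM in mouse 27 (nearest 13.6) and Trpm3 in colon was 1.51 CPM in mouse 31 (nearest 0.186). Trpv4 in duodenum of VSG mice was 1.2 CPM in mouse 22, where the nearest was 0.553.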

How the results depend on the processing

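The calls for Piezo2, Trpa1 and Trpc5 in colon against both other tissues, and for Trpa1 and Trpc5 in ileum against duodenum, held under every alternative run. With the index as a covariate, 2 channel genes passed for ileum against duodenum, 12 enterochromaffin and 14 other TRP calls were left over the 3 tissue comparisons, Piezo1 differed by 1.07 between ileum and duodenum (adjusted p = 0.132), and Trpm4 by 0.74 between colon and duodenum (adjusted p = 0.0626). Index and tissue largely coincide. Piezo1 in colon against ileum was lost without a filter (0.51, adjusted p = 0.14) and with the index (0.57, adjusted p = 0.141). The replicate block by mouse gave 6, 9 and 8 channel genes as a fixed term and 6, 9 and 7 as a random one. Over all 15126 genes, the random block called 5691, 8882 and 7781, and the main model 5110, 8322 and 7436. The block changed no call beyond those given beside the results and Trpm3 in colon against ileum (-1.29, adjusted p = 0.0336, random). DESeq2 added Trpm3 in colon against duodenum (-1.25, adjusted p = 0.0472) and Trpc4 in colon against ileum (-0.56, adjusted p = 0.0451). Without the duodenal library of mouse 27, 6, 9 and 8 passed. For this setting, the index and the fixed block, shares over all genes are not given here. Their counts are therefore not read as results about the channels.

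Reversals included 2 differences that had passed, Trpc1 in colon and Trpm4 in ileum against duodenum, both with the index. For VSG against sham ad libitum they were Piezo1 -0.04 and Trpa1 -0.56 in sums per mouse, Trpv4 0.11 with the random block, Trpa1 -0.16 and Trpm4 0.07 with the index, and Piezo1 -0.00 and Trpa1 -0.00 without the ileum and colon libraries of mouse 12. For VSG against weight-matched sham they were Trpc5 0.14 and Trpm2 0.09 in sums per mouse, Trpv4 0.09 with the random block, and Trpc1 -0.00, Trpm4 0.00 and Trpv4 0.10 without the duodenal library of mouse 27. For weight-matched sham against sham ad libitum they were Trpc5 -0.02 with DESeq2, Trpc4 -0.31 and Trpc5 -0.20 in sums per mouse, Trpm4 -0.01 and Trpv4 0.01 with the random block, Trpc5 -0.05 and Trpm3 -0.11 with the index, Trpm4 -0.12 without the duodenal library of mouse 27, and Trpc5 -0.06 without those of mouse 12. Between tissues, with the index, Trpc1 was 0.13 for colon and 0.40 for ileum against duodenum, Trpm3 was 0.27 for colon and 0.12 for ileum against duodenum and 0.15 for colon against ileum, and Trpm4 was -0.10 for ileum against duodenum. The cause was not tested.

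Leaving out each mouse in turn, VSG against sham ad libitum ranged from -0.08 to 0.21 for Piezo1, -0.13 to 0.24 for Trpa1, -0.16 to 0.13 for Trpc4, -0.18 to 0.44 for Trpc5 and -0.40 to 0.14 for Trpv4. VSG against weight-matched sham ranged from -0.05 to 0.13 for Trpc1, -0.29 to 0.03 for Trpm4, -0.21 to 0.31 for Trpc5 and -0.28 to 0.20 for Trpv4. Weight-matched sham against sham ad libitum ranged from -0.12 to 0.75 for Piezo2, -0.22 to 0.02 for Trpm2, -0.57 to 0.91 for Trpm3, -0.15 to 0.16 for Trpm4, -0.04 to 0.34 for Trpc4, -0.32 to 0.46 for Trpc5 and -0.36 to 0.19 for Trpv4. Trpv4 in colon against ileum ranged from -0.58 to 0.03.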
